A study of Homo sapiens with 6 samples.

Results

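The genes described here are the heat shock proteins and cytosolic chaperones, taken by symbol from the protein-coding rows of the deposited table: the HSPA, HSPB, HSPD, HSPE, HSPH and HSP90 genes, the J-domain genes DNAJA, DNAJB and DNAJC, the chaperonin subunits TCP1 and CCT2 to CCT8, BAG1 to BAG6, HSF1 and HSF2. This gave 89 genes of the 58174 in the table. The rule goes by symbol and not by expression value, but earlier results of these data were known when it was set. The symbols also take in relatives of the endoplasmic reticulum and the mitochondrion, such as HSPA5, HSP90B1, HSPA9 and HSPD1. Polyadenylated RNA was sequenced from KNS42, a single cell line derived from a pediatric glioblastoma (GBM) and cultured in DMEM with 10% FBS, 72 h after transfection with a control siRNA (siC, 3 libraries) or with a pool of siRNAs against MSI1 (siMSI1, 3 libraries). MSI1 encodes the RNA-binding protein Musashi-1, and the comparison asks how the abundance of mRNAs changes when it is depleted. The labels do not say whether the 3 libraries of a group came from separate cultures, so p-values measure the spread between these libraries, which may be technical.

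Chaperones hold unfolded proteins in solution and help them to fold. HSP70 proteins bind short hydrophobic stretches in a cycle driven by ATP, J-domain proteins bring them their substrates and start ATP hydrolysis, and the HSP110 and BAG proteins release the nucleotide. HSP90 takes over substrates such as kinases and steroid receptors at a late stage, the ring-shaped chaperonin TRiC encloses actin and tubulin, and HSPD1 with its lid HSPE1 does the corresponding work in mitochondria. The small heat shock proteins bind misfolded proteins without ATP. Heat and proteotoxic stress activate HSF1, which binds heat shock elements, inverted repeats of GAA, in front of many of these genes, and tumor cells often hold high levels of several of them.

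The deposited values are FPKM, that is, reads scaled to gene length and to a library size, which was not the plain number of reads on genes. A read on a gene of 1 kb stood for 0.0678 FPKM in siMSI1 replicate 1, with 14379126 reads. In siMSI1 replicate 3, with 14700593 reads, it stood for 0.0696 FPKM. The study names TMM normalization, and in the voom fit below the TMM factors of these libraries were 1.023 and 0.979. Rankings, sums and shares between genes therefore depend on the deposited length of each gene. HSP90AB1, with a length of 2980 bases, held 21183 reads in siC replicate 1, and HSP90AA1, with 5248 bases, held 9040. Between 13087025 and 18024080 reads a library lay on genes, and the 89 genes took 1.19% to 1.29% of them. MSI1 was at 63.7, 61.9 and 66.9 FPKM with siC and 12.1, 12.3 and 11.2 FPKM with siMSI1, which is 18.5% of the siC mean. The glioma genes VIM, NES, SOX2, CD44, MSI1 and FABP7 were present in every library, at a summed 1549 to 1615 FPKM in siC and 1235 to 1335 in siMSI1, while 3 of 4 leukocyte and 3 of 3 oligodendrocyte markers had at most 3 reads in every library. The 3 astrocyte markers summed to 24.5 to 28.0 FPKM in siC and 42.8 to 50.3 in siMSI1, with ALDH1L1 at 0 in all libraries. The 3 neuron markers summed to 3.91 to 4.62 and 3.39 to 3.82 FPKM, with RBFOX3 at 0, and the 3 endothelial markers summed to 0.442 FPKM at most. The part of these marker genes in the values below was not tested.

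Of the chaperone genes tested, 5 of 72 changed upon MSI1 depletion at the threshold given below. Of the 89 genes, 72 reached a mean of 0.5 FPKM and entered the test, limma on log2(FPKM + 0.1) with Benjamini-Hochberg adjustment over all 15069 genes tested. At an adjusted p of at most 0.01, 3 genes rose (DNAJC12, DNAJC27 and HSPB1) and 2 fell (DNAJB6 and DNAJC9), which is 6.94% of the 72. Over all genes tested the share was 11.0%, with 5.15% higher and 5.83% lower in siMSI1, and among protein-coding genes it was 13.1%. The members' share lay below both, but it rests on 5 genes, and the difference between the shares was not tested. The log2 fold change of siMSI1 over siC was below 0 for 38 of the 72 and above 0 for 34, with a median of -0.02, against 0.00 over all genes tested. The median size of the change regardless of sign was 0.16 on the log2 scale for the members, 0.21 for all protein-coding genes tested and 0.24 for all genes tested. The FPKM of the groups did not overlap for 27 of the 72 (37.5%), 14 higher and 13 lower, against 42.8% of all genes tested. In bulk RNA, fewer cells that express a gene and less of its RNA in each cell cannot be told apart.

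**Figure D1:**
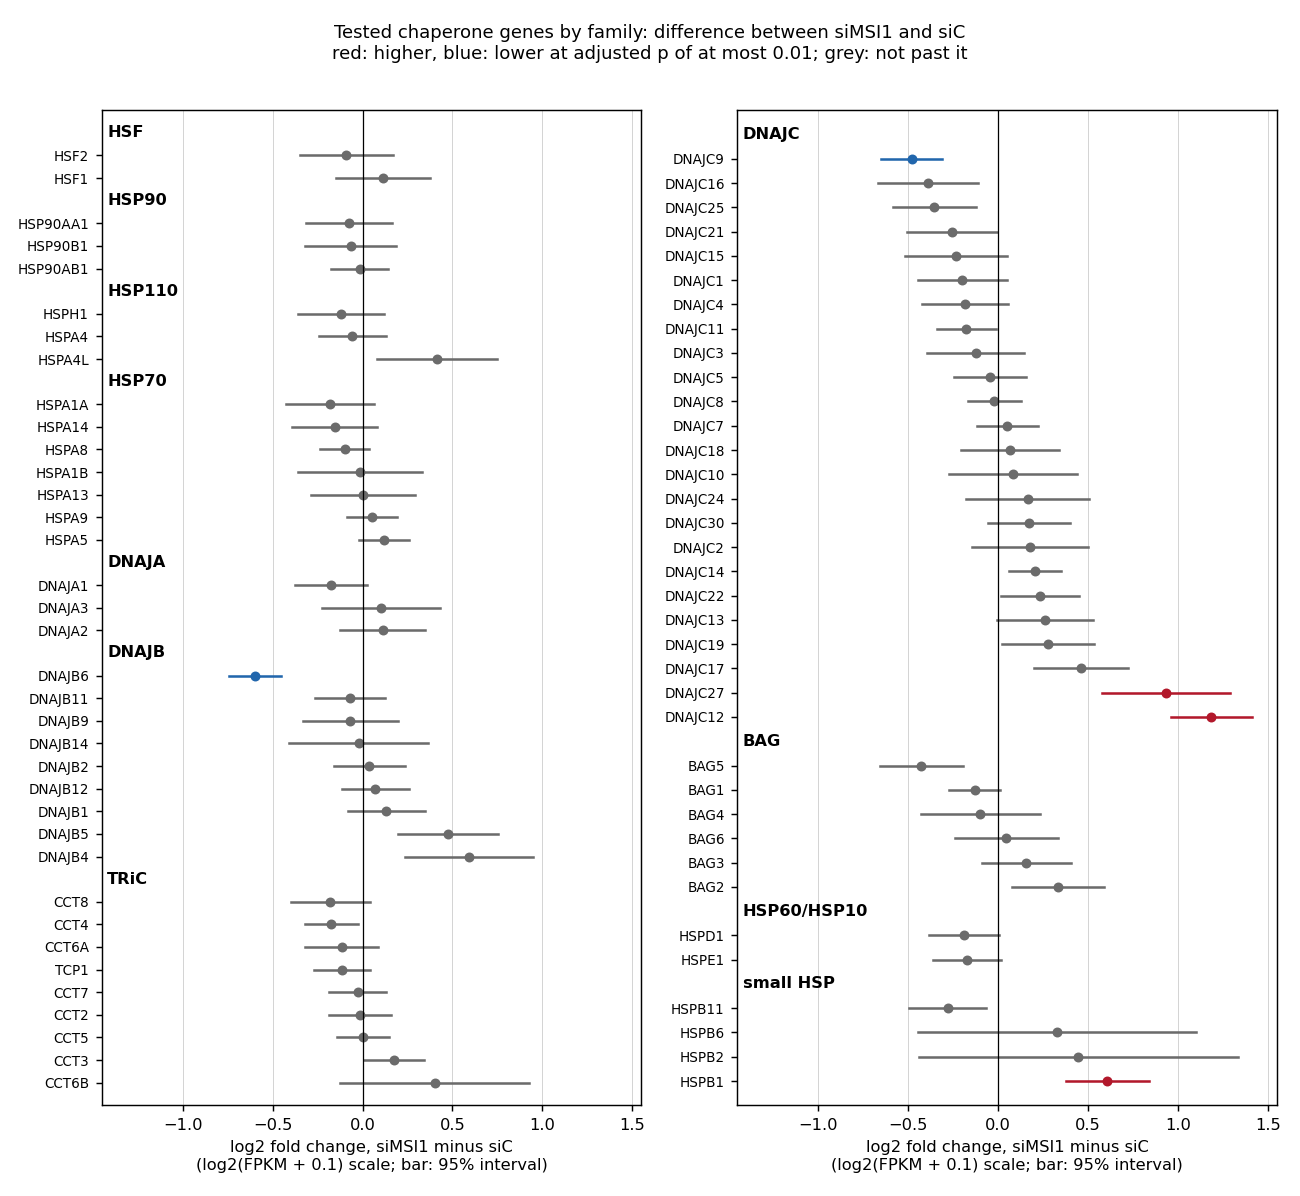
Log2 fold change of siMSI1 over siC, on the log2(FPKM + 0.1) scale, for the 72 tested genes grouped by family, with points for the estimate and bars for the 95% interval from limma. The 3 genes in red and the 2 in blue are past the adjusted p of 0.01, and the intervals of the HSP90 and HSP70 genes include 0, as do those of the TRiC genes except CCT3 and CCT4.

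For the 67 genes not past the threshold the intervals were mostly narrow. In 51 of them the 95% interval lay within 0.5 of 0 on the log2 scale, which bounds the change to less than 1.41-fold in either direction. An adjusted p of at most 0.05 added 6 genes, named here after their values were seen. DNAJB4, DNAJB5 and DNAJC17 were higher in siMSI1, with log2 fold changes of 0.59, 0.48 and 0.46, and BAG5, DNAJC25 and DNAJC16 were lower, at -0.43, -0.36 and -0.39, with adjusted p-values from limma of 0.0185 to 0.0496. In all, 11 of 72 members passed 0.05, which is 15.3%, against 25.1% of all genes tested.

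HSPB1 (ENSG00000106211, chr7:76302673-76304295 on the plus strand of GRCh38) encodes HSP27, and its transcript had the highest FPKM of the small heat shock genes in these cells. Its level was 194.9, 189.5 and 211.9 FPKM in siC and 277.0, 286.1 and 348.4 FPKM in siMSI1. All siMSI1 libraries lay above all siC libraries, and siMSI1 replicate 3 was the highest. The means were 198.8 ± 11.7 and 303.8 ± 38.9 FPKM (SD, n = 3), a log2 fold change of 0.61 (SE 0.10, adjusted p = 0.0046 from limma). The gene held 4771 to 8175 reads a library. Its annotated processed pseudogenes, which can share reads with it, together held 0.05% to 0.16% of that number. Without siC replicate 1 the adjusted p was 0.0257, and in all it lost the threshold in 6 of the 15 other fits.

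The other small heat shock genes were low or did not pass the test. HSPB1 made up 95.1% to 97.3% of the summed FPKM of the 9 HSPB genes in every library. That sum was 204.6, 199.3 and 222.2 FPKM in siC and 285.6, 295.7 and 358.1 FPKM in siMSI1, 150% of the siC mean. HSPB11, which RefSeq lists as IFT25, a component of intraflagellar transport, was at 7.73 ± 0.48 and 6.36 ± 0.56 FPKM (log2 fold change -0.28, adjusted p = 0.06 from limma). HSPB6 was at 0.687 to 1.67 FPKM in siC and 1.14 to 2.06 in siMSI1, and HSPB2, with 8 to 20 reads a library, at 0.331 to 1.04 and 0.711 to 0.991. Their intervals for the log2 fold change, -0.45 to 1.10 and -0.44 to 1.33, hold changes as large as that of HSPB1 as well as none.

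CRYAB, which encodes αB-crystallin, a small heat shock protein that the symbol rule leaves out, stands on the opposite strand to HSPB2 (chr11:111908564-111923722, minus strand). It was at 62.2, 59.8 and 64.4 FPKM with siC and 132.3, 130.1 and 155.9 FPKM with siMSI1. Every siMSI1 library was above every siC library by a wide gap, and again replicate 3 was the highest. The log2 fold change was 1.16 (SE 0.08, adjusted p = 0.000267 from limma), from a mean of 62.1 ± 2.3 to 139.4 ± 14.3 FPKM (SD, n = 3). HSPB2 overlaps CRYAB and held at most 20 reads a library against at least 2810 for CRYAB. The interval of HSPB1, 0.38 to 0.84, lies below that of CRYAB, 0.97 to 1.36. The difference between the genes was not tested.

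**Figure D2:**
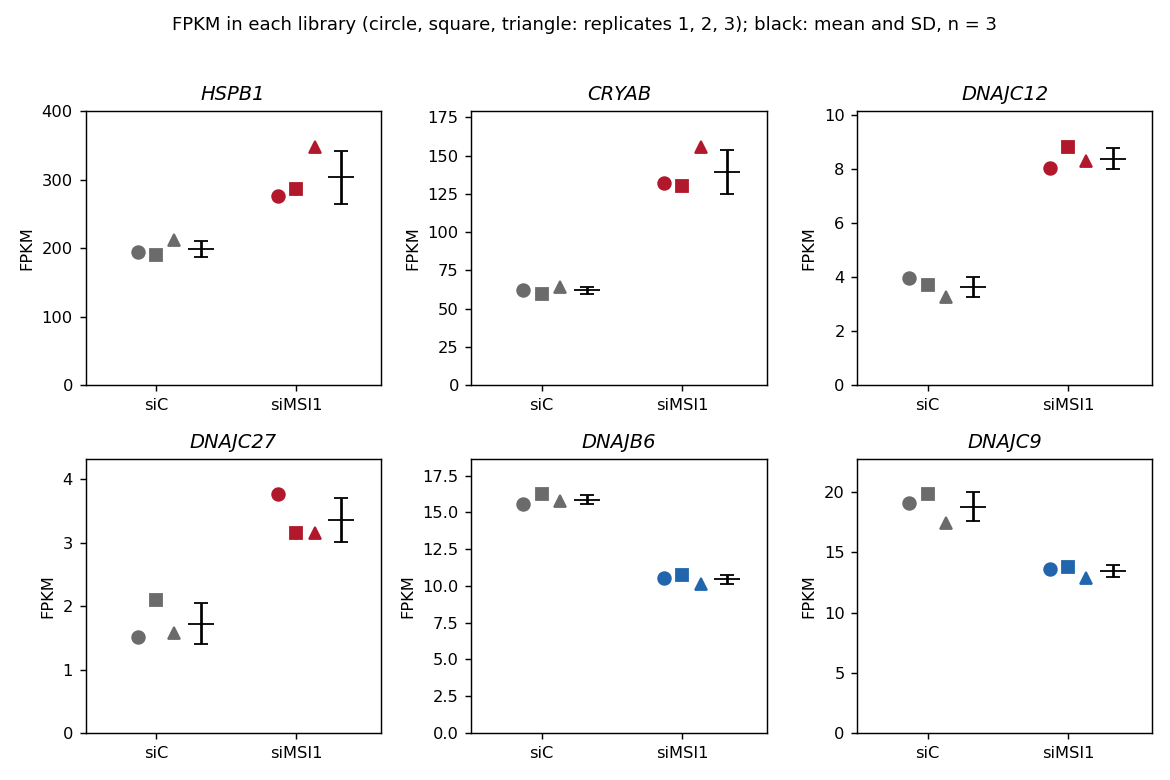
FPKM in each of the 6 libraries for the 5 chaperone genes past the threshold and CRYAB, with the mean and SD (n = 3) in black on axes that start at 0. In each panel the siC and siMSI1 libraries do not overlap, and HSPB1 and CRYAB are highest in siMSI1 replicate 3.

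The other 4 genes past the threshold were J-domain genes, which also make up 36 of the 72 tested. In the DNAJC class, where proteins share only the J domain, it was 3 of 24 genes (12.5%) and in the DNAJB class 1 of 9 (11.1%), both close to the 11.0% of all genes tested. DNAJC12 (ENSG00000108176, chr10:67796669-67838188, minus strand), a co-chaperone of the aromatic amino acid hydroxylases, was at 3.97, 3.70 and 3.24 FPKM with siC and 8.03, 8.81 and 8.27 FPKM with siMSI1. The groups were well apart and the libraries within each close together. With a log2 fold change of 1.18 (SE 0.10, adjusted p = 0.000372 from limma), from 3.64 ± 0.36 to 8.37 ± 0.40 FPKM (SD, n = 3), it had the largest change among the 72 genes tested, on 99 to 252 reads a library. Of the 3 other genes annotated within its limits, RN7SL394P, RNU6.1250P and DNAJC19P1, none had more than 1 read in a library.

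DNAJC27 (ENSG00000115137, chr2:24943636-24972094, minus strand) encodes a small GTPase of the RAB type with a J domain. It was at 1.51, 2.10 and 1.57 FPKM with siC and 3.76, 3.16 and 3.16 FPKM with siMSI1, the lowest siMSI1 library being above the highest siC library. The log2 fold change was 0.93 (SE 0.15, adjusted p = 0.0047 from limma), at 1.73 ± 0.33 and 3.36 ± 0.35 FPKM (SD, n = 3). Its antisense neighbor DNAJC27.AS1 was at 0.372 to 0.554 FPKM in siC and 0.240 to 0.446 in siMSI1, below the filter. The library preparation kept the strand, but the strand setting of the counting is not given in the sources used here. Without siC replicate 1 the adjusted p of DNAJC27 was 0.0227, and it lost the threshold in 6 of the 15 other fits.

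DNAJC9 (ENSG00000213551, chr10:73183362-73247255, minus strand) is a co-chaperone of histones H3 and H4 that brings HSP70 to them. It fell from 19.1, 19.8 and 17.5 FPKM in siC to 13.6, 13.8 and 12.9 FPKM in siMSI1, with no overlap. The log2 fold change was -0.48 (SE 0.07, adjusted p = 0.0034 from limma), and siMSI1 was at 71.4% of siC. The overlapping FAM149B1 on the other strand was at 2.72 and 2.83 FPKM on average and did not pass the test (adjusted p = 0.83). The call of DNAJC9 was lost in 6 of the 15 other fits, with an adjusted p of 0.0227 without siC replicate 1.

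DNAJB6 (ENSG00000105993, chr7:157335381-157417439, plus strand) encodes a J-domain protein that keeps polyglutamine and other amyloid-forming proteins from aggregating. It was at 15.6, 16.2 and 15.8 FPKM with siC and 10.5, 10.7 and 10.1 FPKM with siMSI1. The libraries within a group differed by less than 1 FPKM, and the groups were further apart than that. The means were 15.9 ± 0.32 and 10.5 ± 0.32 FPKM (SD, n = 3), a log2 fold change of -0.60 (SE 0.06, adjusted p = 0.0008 from limma) on 2110 to 4398 reads a library. It was the lowest log2 fold change of the 72. The values are per gene, so the long nuclear and the short cytosolic isoform of DNAJB6 cannot be told apart.

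DNAJB6 is also 1 of 4 members with a long match to the heat shock element in front of the gene. Promoter windows of RefSeq (GRCh38.p14, 250 bases before to 50 after the start) were found for 77 of the 89 genes by symbol. Of the 35116 windows listed, the first of each gene was kept, which left 27305, so other starts of a gene were not searched. The letters of an element of 3 units, GAANNTTCNNGAA or TTCNNGAANNTTC, which are each other's reverse complement and so cover both strands, stood in 4 of these 77 windows (5.19%) and in 133 of all 27305 windows (0.487%). The shorter 2-unit form, GAANNTTC or TTCNNGAA, which lies within every 3-unit match, stood in 18 of 77 (23.4%) and in 13.7% of all. The matches of DNAJB6, HSPA8, DNAJA1 and HSPA6 are shown because these genes share the letters and not their values in these libraries, and that of HSPB1, 1 of 14 members with the 2-unit form alone, because the gene was past the threshold. Each line runs 5′ to 3′ on the strand of the gene with the matching letters in capitals.
DNAJB6, chr7:157336865-157336893, plus strand, match 131 to 119 bases before the start: agagccgaGAACCTTCGCGAAggtggggc
HSPA8, chr11:123062346-123062374, minus strand, match 230 to 218 bases before the start: gcgagcttGAAAGTTCCAGAAcgctgcgg
HSPA8, chr11:123062171-123062199, minus strand, match 55 to 43 bases before the start: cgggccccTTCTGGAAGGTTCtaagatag
DNAJA1, chr9:33025268-33025296, plus strand, match from 3 bases after the start: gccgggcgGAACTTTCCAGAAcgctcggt
HSPA6, chr1:161524458-161524486, plus strand, match 74 to 62 bases before the start: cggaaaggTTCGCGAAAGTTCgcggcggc
HSPB1, chr7:76302483-76302506, plus strand, match 182 to 175 bases before the start: taacgagaGAAGGTTCcagatgag
Of these genes DNAJB6 fell and HSPB1 rose. Of the 13 other members with the 2-unit form alone, 9 were tested, none of them past the threshold, and 4 were below the filter. HSPA8 and DNAJA1 did not pass the test, at log2 fold changes of -0.10 and -0.17, and HSPA6 had 0 to 9 reads a library. DNAJC9, DNAJC12 and DNAJC27 held neither form in their windows. The same held for most members with a window, among them DNAJB1, HSPH1, HSP90AA1, HSPD1, HSPE1 and BAG3, which were not past the threshold. Since 1 window a gene was searched for exact letters, a window without a match does not show that the gene lacks a heat shock element. A match is a description of letters, and nothing on the binding of a factor was measured.

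The remaining J-domain genes did not pass the threshold. DNAJB1, the class B partner of HSP70 in the heat shock response, was at 53.4, 53.6 and 62.8 FPKM in siC and 58.9, 58.9 and 68.2 FPKM in siMSI1, with overlapping groups and a log2 fold change of 0.13 (interval -0.08 to 0.35). DNAJA1, the most abundant J-domain gene, was at 125.5, 129.8 and 113.8 FPKM and 108.2, 119.0 and 100.1 FPKM (log2 fold change -0.17, interval -0.37 to 0.03, adjusted p = 0.18 from limma). Of the 3 tested DNAJA genes none was past the threshold in limma or voom or had an unadjusted p under 0.05. An unadjusted p under 0.05 was reached by 3 of the 9 DNAJB and 11 of the 24 DNAJC genes, and by 38.3% of all genes tested. Voom called 3 and 4 of them, against 18.7% of all genes. The median log2 fold changes of the 3 classes were 0.10, 0.04 and 0.06. The summed FPKM of the 12 DNAJB genes was 129.3 ± 3.6 in siC and 132.1 ± 4.1 in siMSI1 (SD, n = 3), so that the class total was within its spread although DNAJB6 was lower. For the 26 DNAJC genes it was 236.6 ± 5.2 and 240.8 ± 7.6 FPKM.

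For the abundant HSP90 and HSP70 genes the differences were small. HSP90AB1, the constitutive cytosolic HSP90 and the gene with the highest FPKM of all members, was at 474.5, 453.7 and 483.0 FPKM with siC and 456.5, 445.9 and 494.5 FPKM with siMSI1. The groups overlapped, and the log2 fold change was -0.02 with an interval of -0.17 to 0.14. Its stress-inducible sister HSP90AA1 was at 117.1 ± 10.3 and 111.2 ± 12.5 FPKM (SD, n = 3, interval -0.32 to 0.16), and HSP90AB1 made up 78.0% to 83.6% of the pair in every library. The endoplasmic HSP90B1 was at 91.8 ± 8.1 and 88.0 ± 11.2 FPKM (interval -0.32 to 0.19). Summed over the 3 genes the level was 679.3 ± 3.6 FPKM in siC and 664.8 ± 2.2 in siMSI1, 97.9% of siC. The sums did not overlap, at 675.4 to 682.4 FPKM in siC and 662.3 to 666.6 in siMSI1, and their difference was not tested.

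HSPA8, the constitutive HSC70, was at 294.5, 297.9 and 284.4 FPKM with siC and 270.9, 276.6 and 271.3 FPKM with siMSI1. The groups did not overlap, but the difference was small, with a log2 fold change of -0.10 (interval -0.23 to 0.04, adjusted p = 0.26 from limma). The heat-inducible HSPA1A and HSPA1B were low in FPKM as counted. HSPA1A was at 3.01, 3.16 and 2.91 FPKM and then 2.81, 2.43 and 2.75, and HSPA1B at 4.05, 4.03 and 3.45 FPKM and then 3.04, 4.30 and 4.17. Neither passed the test (adjusted p = 0.25 and 0.95 from limma). Since these copies are nearly identical, whether reads that fit both were counted, and how they were divided, is uncertain. Their levels may be understated. With the FPKM as counted, HSPA8 made up 97.4% to 97.8% of the sum of HSPA8, HSPA1A, HSPA1B, HSPA1L, HSPA2 and HSPA6 in each library. HSPA14, at 5.66 ± 0.59 FPKM in siC and 5.06 ± 0.29 in siMSI1, was not part of this sum.

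The HSP70 genes of other compartments also differed little. The endoplasmic HSPA5 (BiP) was at 132.4 ± 3.3 FPKM in siC and 143.9 ± 4.7 in siMSI1 (log2 fold change 0.12, interval -0.02 to 0.26), and the mitochondrial HSPA9 (mortalin) at 64.8 ± 1.3 and 67.3 ± 2.2 (0.05, interval -0.08 to 0.19). Of the HSP110 genes, which act as exchange factors, HSPA4 was at 28.5 ± 1.1 and 27.5 ± 2.4 FPKM and HSPH1 at 15.8 ± 1.5 and 14.6 ± 1.5 (intervals -0.24 to 0.13 and -0.36 to 0.12). HSPA4L, the least abundant of them, was at 3.84, 4.70 and 3.54 FPKM in siC and 5.49, 6.13 and 4.57 in siMSI1, with an adjusted p of 0.07 from limma. None of the 7 tested HSP70, 3 HSP110 and 3 HSP90 genes was past the threshold in limma or in voom, HSPA4L was the only one of them with an unadjusted p under 0.05, and the summed HSP70 level was 522.3 ± 14.7 and 515.9 ± 11.2 FPKM.

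**Figure D3:**
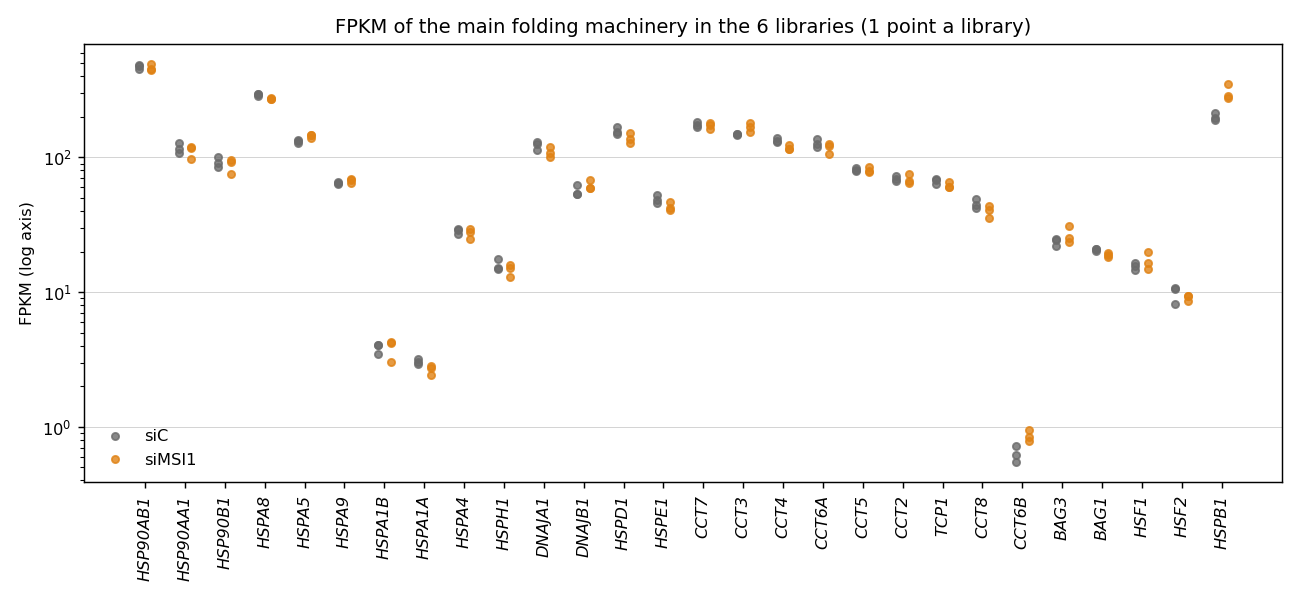
FPKM on a log axis for 28 genes of the main folding machinery, 1 point a library, siC in grey and siMSI1 in orange. The 2 groups lie on top of each other for most genes, from HSP90AB1 at the top to CCT6B at the bottom, and HSPB1 at the right is the one past the threshold.

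The 8 subunits of TRiC expressed outside the testis ranged from CCT8, at 44.1, 49.3 and 42.0 FPKM in siC and 40.9, 43.3 and 35.5 in siMSI1, to CCT7, at 173.9, 169.5 and 182.4 and 162.1, 172.9 and 181.1. CCT8 was the lowest and CCT7 the highest subunit in all 6 libraries, 3.44 to 5.10 times apart, although the ring holds each subunit at an equal number. The largest differences among the 8 were opposite in sign. CCT3 was at 148.7, 145.8 and 150.0 FPKM in siC and 155.1, 168.1 and 179.9 in siMSI1 (log2 fold change 0.18, adjusted p = 0.11 from limma), and CCT8 at -0.18 and CCT4 at -0.17, the latter from 133.2 ± 5.0 to 118.2 ± 4.9 FPKM (adjusted p = 0.09 from limma). CCT2, CCT5, CCT6A, CCT7 and TCP1 had log2 fold changes of -0.01, 0.00, -0.12, -0.03 and -0.11. None of the 9 chaperonin genes tested passed the threshold in limma or voom, although CCT3 and CCT4 had an unadjusted p under 0.05. Their summed level was 847.5 ± 16.9 FPKM in siC and 828.5 ± 29.6 in siMSI1 (SD, n = 3). CCT6B, known from the testis, was at 0.627 ± 0.090 and 0.857 ± 0.077 FPKM (adjusted p = 0.24 from limma).

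The mitochondrial chaperonin HSPD1 and its partner HSPE1 are transcribed away from each other on chromosome 2, with RefSeq starts 105 bases apart. HSPD1 was at 155.1, 169.1 and 150.2 FPKM in siC and 136.2, 152.1 and 128.5 in siMSI1, and HSPE1 at 45.6, 52.2 and 48.4 and 40.7, 47.0 and 42.1. For both the groups overlapped, and the log2 fold changes, -0.19 and -0.17, had intervals of -0.38 to 0.01 and -0.36 to 0.02 (adjusted p = 0.14 and 0.16 from limma). For both genes siC replicate 2 was the highest library. In the reported fit neither had an unadjusted p under 0.05, and neither passed with voom, the count-based alternative on the recovered reads. In a fit that blocks on the replicate number their adjusted p-values from limma were 0.032 and 0.034. Annotated pseudogenes held 1.67% to 2.07% of the reads of HSPD1 and 1.74% to 3.21% of those of HSPE1. HSPE1 also lies within the annotated readthrough gene HSPE1.MOB4 on the same strand, and how shared reads were counted is not known here.

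HSF1, the transcription factor of the heat shock response, was at 15.7, 14.5 and 16.6 FPKM in siC and 16.3, 14.8 and 19.8 in siMSI1 (log2 fold change 0.11, interval -0.15 to 0.38), and HSF2 at 10.7, 10.5 and 8.18 and 9.39, 9.34 and 8.61 (-0.09, interval -0.35 to 0.17). The groups overlapped for both, and neither had an unadjusted p under 0.05 or passed with voom. Among the BAG genes, the nucleotide exchange factors that tie HSP70 to other pathways, BAG1 was at 20.6 ± 0.4 and 18.8 ± 0.6 FPKM (interval -0.27 to 0.01). BAG3, which joins HSP70 to small heat shock proteins in selective autophagy, was at 24.9, 22.1 and 24.3 FPKM in siC and 25.2, 23.7 and 31.0 in siMSI1, with siMSI1 replicate 2 inside the siC range (log2 fold change 0.16, interval -0.09 to 0.40). None of the 6 BAG genes was past the threshold in limma, where BAG2 and BAG5 had an unadjusted p under 0.05, and voom called BAG5.

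The partner genes of these chaperones stood in 9 lists of 69 genes in all, chosen with earlier results of these data known. Of the 64 tested, 4 rose (6.25%, against 11.0% of all genes tested in either direction), none fell and 60 did not pass the threshold, 47 of these with intervals within 0.5 of 0, and the median log2 fold change was 0.06. An unadjusted p under 0.05 was reached by 19 of the 64 (29.7%, against 38.3% of all genes tested), 5 of them lower. Voom called 10 (15.6%, against 18.7% of all genes), 3 of them lower. CRYAB was the one of 3 tested genes in its list past the threshold, beside HSF4 at a log2 fold change of -0.86 and HSBP1 at 0.21 (adjusted p = 0.14 and 0.06 from limma). PFDN2, a subunit of prefoldin, which hands actin and tubulin to TRiC, was at 113.8, 114.6 and 119.8 FPKM in siC and 151.1, 179.2 and 155.3 in siMSI1 (log2 fold change 0.48, SE 0.08, adjusted p = 0.0049 from limma). It was the one of 6 prefoldin subunits past the threshold, and the others had log2 fold changes of -0.25 to 0.20. CLPB, a mitochondrial disaggregase, was at 17.9, 17.0 and 19.1 FPKM and 25.5, 25.0 and 28.6 (0.55, SE 0.08, adjusted p = 0.0027 from limma). The other 8 mitochondrial folding and proteolysis genes, LONP1 and TRAP1 among them, were not past the threshold.

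CDC37L1, a relative of the kinase co-chaperone CDC37, was at 4.75, 4.44 and 3.68 FPKM in siC and 8.35, 8.58 and 6.17 in siMSI1 (0.82, SE 0.15, adjusted p = 0.0072 from limma), the one of 13 HSP90 co-chaperones past the threshold. The calls of CDC37L1, PFDN2 and CLPB were lost in 7, 6 and 5 of the 15 other fits, with adjusted p-values of up to 0.0284, 0.0302 and 0.0172. CDC37 itself was at 81.6 ± 5.2 and 82.9 ± 3.8 FPKM. No gene was past the threshold among the 11 other HSP70 cofactors, 10 endoplasmic folding genes, 3 TRiC-binding cofactors tested, 4 genes of nascent chain binding and 9 other heat-responsive genes, whose median log2 fold change was -0.01. In these 5 lists 2, 2, 0, 1 and 3 genes had an unadjusted p under 0.05, and voom called 2, 0, 0, 0 and 1. The last list shares FKBP4, STIP1, AHSA1 and CHORDC1 with the co-chaperones. Between adjusted p-values of 0.01 and 0.05, and named after their values were seen, stood the HSP90 co-chaperones PTGES3 (p23) and UNC45A and the ubiquitin ligase STUB1 (CHIP), at log2 fold changes of -0.35, -0.43 and -0.47, and SIL1, TIMM44 and UBB at 0.41, 0.31 and 0.39. These are the 6 that voom added.

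As counted, the 17 genes below the filter add little RNA. No read was counted on DNAJB8, HSPB7, HSPE1.MOB4 and HSPB2.C11orf52 in any library, which allows up to 3 reads in each. HSPE1.MOB4 overlaps HSPE1 and MOB4 on the same strand, and HSPB2.C11orf52 overlaps HSPB2 and C11orf52. How reads over overlapping genes were counted is not known here, so these zeros, and the levels of HSPE1 and HSPB2, may depend on it. DNAJA4, HSPA2 and HSPB3 had at most 3 reads in a library. HSPA6, an HSP70 gene of strong stress induction, had 0 to 9 reads a library, and the testis gene HSPA1L 1 to 4. The others, DNAJB7, DNAJB13, DNAJC6, DNAJC28, HSPA12A, HSPA12B, HSPB8 and HSPB9, reached 18 reads at most. Without the filter 13 of the 17 were tested, and none passed the threshold or had an unadjusted p under 0.05 (lowest adjusted p = 0.229 from limma).

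The 5 changed genes did not stand equally firm. DNAJC12 and DNAJB6 stayed at or below an adjusted p of 0.01 in each of the 15 other fits (at most 0.0029 and 0.0071), as did CRYAB (at most 0.0029). DNAJC9, HSPB1 and DNAJC27 each passed in 9 of the 15, with highest adjusted p-values of 0.0227, 0.0257 and 0.0227, and none turned in direction. In siMSI1, replicate 3 was farthest from the median of its group for 42 of the 72 genes, and without it the same 5 genes were past the threshold. DNAJC12 and DNAJB6 alone remained without siC replicate 1, without siMSI1 replicate 2, without a filter on low genes and with plain eBayes. DNAJC9 was further lost without siC replicate 2 (adjusted p = 0.0145) and siMSI1 replicate 1 (0.0134), HSPB1 without siC replicates 2 (0.0195) and 3 (0.0126), and DNAJC27 without siC replicate 3 (0.0184) and siMSI1 replicate 1 (0.0207), all from limma.

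**Figure D4:**
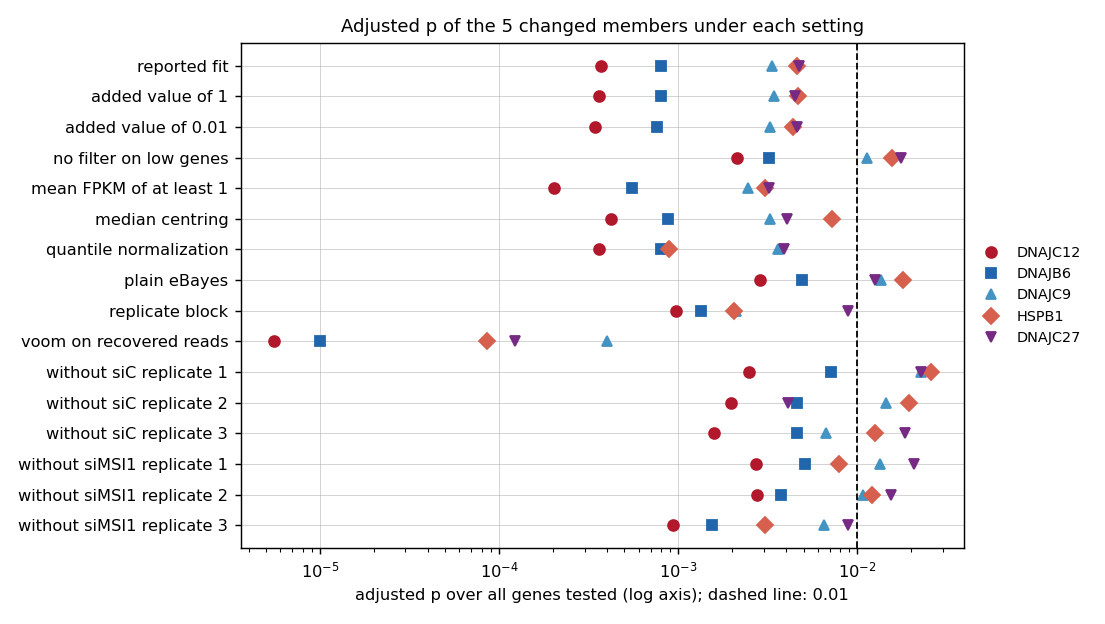
Adjusted p over all genes tested, on a log axis, for the 5 changed members in the reported fit and in each of 15 other fits, with the threshold of 0.01 dashed. DNAJC12 and DNAJB6 stay to its left in all of them, while DNAJC9, HSPB1 and DNAJC27 cross it in 6 fits each.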

How the data were processed

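Per the labels and the study's methods, reads of 150 bases from strand-specific libraries of polyadenylated RNA were clipped with cutadapt 1.14, aligned to the human genome (hg38, GRCh38) with HISAT2 2.1.0, handled with SAMtools 1.5 and counted per Ensembl gene (GRCh38.89) with featureCounts 1.5.3. The strand setting of counting is not given in the sources used here. The authors deposited one table with FPKM in 6 columns, 1 per library, beside gene length and their own edgeR 3.18.1 log fold changes, p-values and FDR. The edgeR values were not used, and the gene length served to recover reads from the FPKM. Every value came out as a whole number of reads (within 0.01), which gave the depth, 13087025 to 18024080 reads a library.

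The FPKM values as deposited were tested with limma 3.58.1 in R 4.3.3 (lmFit, eBayes with trend and robust) on log2(FPKM + 0.1), siMSI1 against siC with 3 libraries each, over the 15069 genes with a mean of at least 0.5 FPKM. A fold change on this scale understates that of low genes. The threshold was an adjusted p of 0.01, that of the study. Intervals are 95% intervals from limma. In simulated libraries for this comparison with 190 changed genes among 15120 tested, this fit called 163 of the 190 and 8 others. These 8 are a larger share of its calls than the 0.01 of the threshold, in a single simulation. Voom called 181 of the 190 and 2 others. The changes put in were larger than those of HSPB1, DNAJB6, DNAJC9 and DNAJC27, and all genes had the same setting of spread. The simulation therefore does not show how often changes of that smaller size are found. Exact permutation of 3 against 3 libraries cannot go below p = 0.1, so no such test was made. Genes were named as follows: HSF1, HSF2, 26 other core chaperones, co-chaperones and chaperonin subunits, every member past the threshold, the largest and smallest change, and partner genes past the threshold. The members and the lists were chosen with earlier results of these data known. Gene positions are those of GENCODE 44, of the same build, and promoter windows are RefSeq's by symbol. Alternatives were other added values, filters, scalings and variance models, a replicate block, voom on the recovered reads and leaving out each library.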

Additional observations from a re-analysis of the deposited data

How the results depend on the processing

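With an adjusted p of 0.05, 11 members and 3787 genes were past the threshold, against 5 and 1655 at 0.01. Without a filter on low genes 2 members and 792 genes remained past it, with plain eBayes 2 and 847, and with voom on the recovered reads 9 and 2820. Leaving out each library in turn left 2 to 5 members and 517 to 1603 genes, the lowest count of genes without siC replicate 1. Added values of 1 and 0.01, a mean of at least 1 FPKM, median centring and quantile normalization each called the same 5 members, and the median of all genes moved by less than 0.1 under each scaling. With the replicate block 7 members (BAG2 and DNAJB4 in addition) and 2250 genes were past the threshold. Same-numbered libraries deviated from their group means with correlations of -0.07, 0.08 and 0.08. The siC replicates 2 and 3 correlated best with the siMSI1 library of their own number, and siC replicate 1 with siMSI1 replicate 3. The correlations do not settle whether the numbers are pairs, and the reported fit does not treat them as such. With the block the adjusted p-values of HSPD1, HSPE1 and DNAJA1 were 0.032, 0.034 and 0.041 from limma, still above 0.01. The causes of these changes between fits were not tested.

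Of 37 named genes, 28 kept their direction in all alternatives and 9 turned in at least 1, none of which was past the threshold in any fit. CCT5 turned to -0.021 with quantile normalization and -0.0015 with voom. Left-out libraries gave log2 fold changes of -0.036 to 0.025 for CCT5, -0.074 to 0.030 for CCT2, -0.065 to 0.014 for CCT7, -0.060 to 0.015 for HSP90AB1, -0.135 to 0.020 for HSP90AA1, -0.136 to 0.042 for HSP90B1, -0.103 to 0.140 for HSPA1B, -0.109 to 0.014 for HSPA4 and -0.0034 to 0.208 for HSF1. At 99 to 312 reads a library for DNAJC12 and DNAJC27, counting error adds to the spread.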
